A study of Mus musculus with 10 samples.

Results

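Nonclassical monocytes sorted from the bone marrow of LAIR1+/+ (WT) mice were profiled by bulk RNA sequencing in 5 libraries, of 10 in the series. These 5 are described here on their own, as the resting transcriptome of the cell, and the libraries of the LAIR1-/- animals enter no value below. Members were chosen by library title alone (WT1 to WT5). A gene counts as detected when it had at least 1 CPM in all 5 libraries, where CPM are counts scaled to a library total of 1000000. The animals had received no treatment and were kept on chow in a pathogen-free facility, and the labels state no age, sex or strain. The labels give a sort purity of 98%, an input of 5000 to 10000 cells and a low-input RNA preparation. Whether the libraries come from separate animals is not stated, so their spread may be partly technical. Each library held 12106789 to 15311442 counts, and 3 counts, taken as the limit that a count of 0 allows, correspond to 0.196 to 0.248 CPM.

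Nonclassical monocytes are the patrolling subset. They arise from classical, Ly6C-high monocytes, crawl along the inner vessel wall by way of the integrin LFA-1 and the fractalkine receptor CX3CR1, and clear debris there. Their survival depends on the orphan nuclear receptor NR4A1 and on signalling by the colony-stimulating factor 1 receptor. LAIR1, the inhibitory receptor that the series is named for, binds collagen domains and recruits phosphatases through its cytoplasmic tail.

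A total of 11441 genes were detected, 21.7% of the 52636 in the table, and they held 99.5% to 99.6% of the counts of each library. Of these, 10015 were protein coding and took 97.4 ± 0.173% of the counts (SD, n = 5). Long noncoding and related transcript classes made up 758 genes, and 557 processed pseudogenes took 0.527 ± 0.0157%. The reads were concentrated in few genes. The 10 most abundant genes took 9.89 ± 0.620% of the counts, the 100 most abundant 26.1 ± 0.948% and the 1000 most abundant 58.1 ± 0.627%. Only 101 genes reached a mean of 1000 CPM, and 3070 detected genes lay under 10 CPM and held 1.53% of the counts together. At the limit of detection, Atrip stood just inside with a minimum of 1.03 CPM, and Gpt just outside with a minimum of 0.991 CPM.

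The largest single share belonged to Lyz2, the phagocyte lysozyme. Its values in WT1 to WT5 were 32505, 27097, 26011, 26823 and 31420 CPM, a mean of 28771 ± 2965 CPM (SD, n = 5). Apoe, which codes for a lipid-carrier protein, followed at 13484 ± 2484 CPM, and Tmsb4x, the actin-sequestering thymosin beta 4, at 10618 ± 1113 CPM. The next genes by share of counts were H2-D1, a classical MHC class I heavy chain (9153 ± 193 CPM), Cd74, the MHC class II invariant chain (8242 ± 3796 CPM), and B2m, the class I light chain (6453 ± 620 CPM). H2-D1 was nearly level across the libraries, between 8880 and 9370 CPM, whereas Cd74 ranged from 4926 to 13987 CPM. Gpx1 (6449 ± 410 CPM), Ly6e (5383 ± 389 CPM), Csf1r (5208 ± 210 CPM) and the cathepsin gene Ctsb (5109 ± 142 CPM) completed the 10 most abundant.

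Levels of different genes were compared per kilobase of merged exon, after rescaling to a total of 1000000 in each library; this is the per-kilobase level, given in per-kilobase units. On that scale Lyz2 again ranked 1 of 11428 detected genes with a length (65938 ± 6616 per-kilobase units), ahead of Tmsb4x (23325), B2m (22603) and Apoe (19066). Short transcripts rose in the order. Fcer1g and Tyrobp, the signalling adaptors of activating Fc and myeloid receptors, ranked 9 and 12 with per-kilobase levels of 9877 and 7487. Ifitm3, a membrane protein that restricts viral entry, ranked 11 at 8637 per-kilobase units. The protease Ctss ranked 10 at 8775 per-kilobase units.

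The 6 markers of the subset were all abundant and close to level in all 5 libraries. No other cell population was compared, so their levels are no test of the label. Nr4a1 (ENSMUSG00000023034, GRCm38 chromosome 15, 101254269 to 101274795, plus strand) measured 1281, 1430, 1520, 1323 and 1369 CPM in WT1 to WT5. Cx3cr1 (chromosome 9, 119901616 to 120069879, minus strand) measured 1456, 1214, 1322, 1250 and 1331 CPM. Treml4, a receptor of late apoptotic and necrotic cells (chromosome 17, 48264295 to 48275360, plus strand), measured 1132, 1195, 1218, 1206 and 1326 CPM. No library was low in all of these markers. Ace, the angiotensin-converting enzyme (chromosome 11, 105967945 to 105989964, plus strand), had the widest spread of the 6, with 957, 1254, 1324, 1075 and 1216 CPM. Itgal, the alpha chain of LFA-1 (chromosome 7, 127296260 to 127335138, plus strand), averaged 1473 ± 125 CPM. Spn, which codes for CD43 (chromosome 7, 127132232 to 127137823, minus strand), averaged 276 ± 20.9 CPM. By per-kilobase level Treml4 ranked 50, Nr4a1 81, Cx3cr1 124, Itgal 169, Ace 171 and Spn 843, so that Spn was the lowest of the 6 and still above 92.6% of detected genes.

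A list of 20 genes associated with the nonclassical subset, of which these markers are part, had all 20 members detected. Its median per-kilobase percentile was 98.7, where all detected genes run from 0 to 100 with a median at 50. The list was chosen with earlier results of these data known, so this percentile describes the list and is no test of identity. Its summed CPM took 2.03 ± 0.124% of the counts. Csf1r led the list with 5191, 4952, 5482, 5072 and 5341 CPM and ranked 28 by per-kilobase level. Adgre4, an adhesion G-protein-coupled receptor, averaged 2540 ± 172 CPM. Fcgr4, the activating Fc receptor for IgG2a and IgG2b, averaged 873 ± 127 CPM, and Cd300e, an activating receptor, 993 ± 95.4 CPM. The scavenger receptor gene Cd36 averaged 653 ± 54.7 CPM and Eno3, the muscle-type enolase, 671 ± 126 CPM. Tcf7l2 (159 ± 24.1 CPM) and Itgax, which codes for CD11c (100.1 to 141.9 CPM), were the lowest of the list by per-kilobase level, at the percentiles 75.1 and 81.6. Ear2 averaged 188 ± 23.6 CPM, but only 39.5% of the 31-base stretches of its transcript occur in no other gene, so that its count may be split with its relatives.

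Lair1 itself (ENSMUSG00000055541, chromosome 7, 4003402 to 4063204, minus strand) was expressed in every library, at 378, 379, 348, 364 and 316 CPM. Its mean was 357 ± 25.9 CPM, and its per-kilobase percentile was 90.7. Among the 21 detected members of the list of inhibitory receptors and their phosphatases, 10 stood above Lair1 on the per-kilobase scale and 10 below. Clec4a3, a C-type lectin, reached 3643 per-kilobase units, Clec4a1 1220, Sirpa, the receptor of CD47, 909, Cd300a 648, Pilra 508 and Pirb 240, against 144 for Lair1. Ptpn6, the phosphatase SHP-1 on which such receptors act, reached 1717 per-kilobase units. Havcr2, which codes for TIM-3 (125), and Siglece (56.1) were among those below. In all, 21 of 23 members were detected, and the sum of the list varied little, with a CV of 2.73% between libraries.

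**Figure D1:**
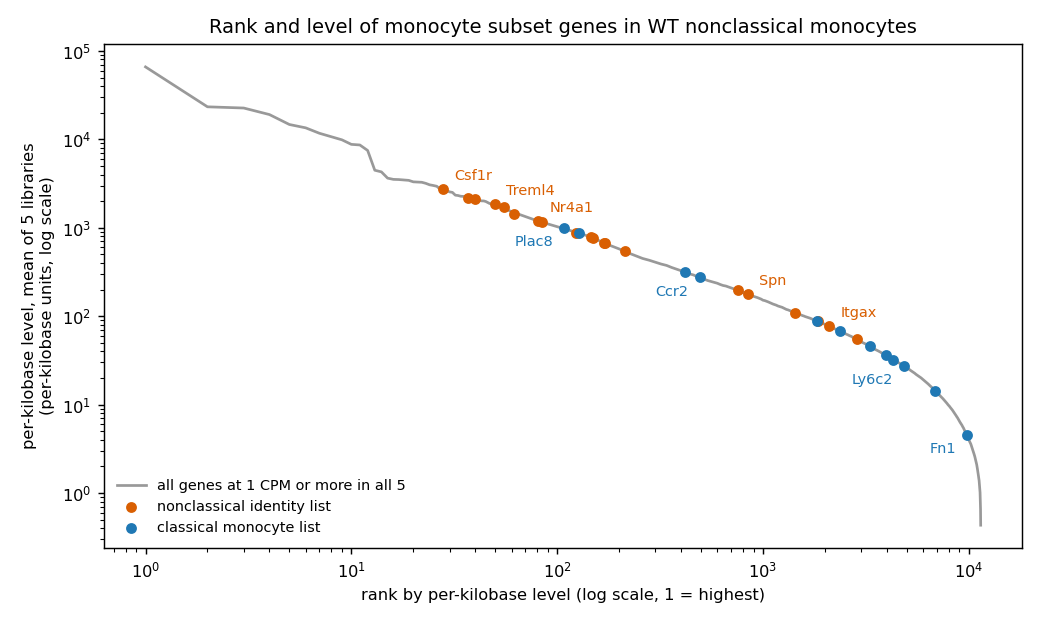
Per-kilobase level (y axis, mean of the 5 WT libraries in per-kilobase units, log scale) against rank (x axis, log scale) for all detected genes (grey line), for the nonclassical identity list (orange points) and for the classical monocyte list (blue points). The orange points gather at the upper end of the line, with Csf1r at rank 28 and Spn at 843, and the blue points spread from Plac8 at rank 108 to Fn1 at 9770.

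The 250 bases before the RefSeq start of Nr4a1 are shown because this gene marks the subset and because NR4A genes are classic targets of cAMP signalling. Capitals mark TGCGTCA, a motif related to the cAMP response element, on either strand. The window lies at chr15:101266596-101266845 of GRCm38.p6, plus strand, and is read 5′ to 3′.
Nr4a1: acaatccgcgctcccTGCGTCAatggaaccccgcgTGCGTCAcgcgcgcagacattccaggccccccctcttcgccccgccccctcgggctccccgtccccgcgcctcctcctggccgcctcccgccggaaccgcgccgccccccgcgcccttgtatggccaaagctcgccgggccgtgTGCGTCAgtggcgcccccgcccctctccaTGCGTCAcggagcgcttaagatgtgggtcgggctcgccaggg
These letters occur 4 times, the nearest match ending 36 bases before the start. Of 32851 windows of the same length in RefSeq's promoter table, 1.75% hold the motif at least once. The match is a description of the sequence and says nothing about binding in these cells.

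Other rapidly induced genes varied widely in level, and 23 of 27 genes on the list of early response and heat shock genes were detected, with a median per-kilobase percentile of 79.7. Nr4a2 measured 0.632, 3.22, 0.833, 0.849 and 2.54 CPM, and Nr4a3 had counts in WT4 only (0.0653 CPM). Per kilobase, Nr4a1 exceeded Nr4a2 by at least 513-fold in each library. Egr1 ranged from 0.790 to 3.06 CPM, Egr3 was counted in WT2 only (0.165 CPM), and Fosb in 1 library at 0.0653 CPM. Fos stood at 20.6 CPM on average. Other members of this list were well expressed: Btg2, an antiproliferative factor, averaged 716 ± 53.6 CPM, Ier2 459 CPM, Junb 312 ± 27.2 CPM and Zfp36, an mRNA-destabilising protein, 412 CPM.

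Genes of the classical subset were present at lower levels. Of the 13 listed, 12 were detected, with a median per-kilobase percentile of 75.2 and a summed share of 0.224 ± 0.0182% of counts. Ly6c2, whose product is a defining antigen of classical monocytes, was low, at 34.9, 26.3, 15.6, 30.7 and 18.2 CPM. F13a1, the coagulation factor XIII A chain, measured 77.5, 99.9, 53.7, 103 and 69.7 CPM. Vcan was counted in WT1 only (0.158 CPM). Ccr2, the receptor that drives classical monocytes out of the marrow, was not low, at 852, 496, 638, 684 and 413 CPM, and WT1 was highest and WT5 lowest. Plac8 (524 ± 77.2 CPM) and Hp, the haptoglobin gene (458 ± 43.1 CPM), were also abundant. In bulk RNA, a few classical monocytes in a sort and a low level in every cell cannot be told apart, and fewer cells of a type and less RNA per cell cannot be told apart either.

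Within each library the pairs given here kept one direction, but their genes were chosen with earlier results of these data known. The per-kilobase level of Cx3cr1 was 3.38 ± 0.914 times that of Ccr2 (SD, n = 5; range 2.57 to 4.83). Treml4 was 44.6 to 107 times as high as Ly6c2. Fcgr4 was 30.9 ± 3.73 times as high as Fcgr1, the high-affinity IgG receptor of classical monocytes and macrophages, and 1.71 ± 0.170 times as high as Fcgr3. Itgal was on average 7.51 times (6.15 to 8.82) as high as Itgam, the CD11b chain, although only 25.9% of the 31-base stretches of the Itgam transcript are its own. All of these ratios were above 1 in 5 of 5 libraries, which for pairs so chosen is a description and no test of the subset.

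Among chemoattractant receptors, S1pr5, a sphingosine 1-phosphate receptor that monocytes of this subset use to leave the marrow, had the highest per-kilobase level (1130 ± 324 per-kilobase units). Its values were 685, 809, 886, 1407 and 900 CPM, highest in WT4. It exceeded Cx3cr1 per kilobase in 4 of 5 libraries, so the order of these 2 genes was not settled. S1pr1, the receptor that lymphocytes use for exit, was at 1.11 to 4.30 CPM. Ltb4r1, for leukotriene B4, C5ar1, for complement C5a, and Gpr35 had per-kilobase levels of 252, 237 and 191. Cx3cr1, at 880, and Ccr2, at 274, stood above them. Cxcr4, which holds cells in the marrow, measured 71.2, 45.9, 41.7, 102 and 98.4 CPM and was highest in WT4 and WT5. Of the 30 listed receptors 24 were detected, and Cxcr1, Cxcr5 and Ccr6 were at or below 0.261 CPM in every library.

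The receptors for growth factors and cytokines were the receptor class with the largest share of counts, 1.77 ± 0.0608%, and 26 of 26 were detected. After Csf1r, the per-kilobase order was Ifngr1, for interferon gamma (2317 per-kilobase units), Tnfrsf1b, a TNF receptor (2273), Il10ra (1043) and Csf2ra, for GM-CSF (728). Ifngr1 and Tnfrsf1b did not differ beyond their spread (SD 58.4 and 206 per-kilobase units). Csf1r exceeded Csf3r, the G-CSF receptor, by 8.37 ± 1.03 times per kilobase. The ligands were a contrast. Il10 (up to 0.278 CPM), Ccl2 (up to 0.374 CPM) and Ifnb1 (up to 0.248 CPM) were at or near the limit of a few counts, and Il12b, Cxcl1 and Cxcl3 had 0 counts in all 5. Of 41 listed chemokines and cytokines 23 were detected. Ccl6 was the most abundant, at 2048, 1761, 1496, 1650 and 1824 CPM, followed per kilobase by Grn, the progranulin gene, and Ccl9. Il1b averaged 117 ± 28.4 CPM and Tnf 16.6 ± 2.02 CPM.

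The adhesion genes were led by Itgb2, the beta chain shared by LFA-1 and CD11b integrins, at 2657 ± 199 CPM. Its per-kilobase level was 2.80 ± 0.151 times that of Itgb1. Selplg, the selectin ligand PSGL-1, averaged 1304 ± 86.7 CPM, and Cd47 1310 ± 136 CPM. The detected members of this list had a median CV of 16.7%, close to that of all detected genes (16.0%). Itgb5 was one of the uneven members, at 141, 231, 522, 272 and 213 CPM, with WT3 highest. Pecam1, which codes for CD31, ranged from 164 CPM in WT4 to 390 CPM in WT5.

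Of the endosomal sensors of nucleic acids, Tlr13, Tlr7 and Tlr8 were detected and Tlr9 was not. Tlr13, which in mice senses bacterial ribosomal RNA, measured 636, 681, 767, 761 and 703 CPM. Its per-kilobase level was 14.1 ± 2.41 times that of Tlr4, the lipopolysaccharide receptor. Tlr7 (176 ± 13.1 CPM) and Tlr8 (112 ± 12.9 CPM) were present in all libraries, and Unc93b1, which escorts these receptors to endosomes, averaged 1241 ± 78.4 CPM. Tlr9, for CpG DNA, stood at 0.448 to 4.18 CPM, and Tlr5, for flagellin, at 0.139 to 2.22 CPM, also not detected by the rule. Cd14 was modest, at 80.9 ± 7.93 CPM.

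The summed lists of the phagocyte machinery varied little. Lysosomal genes, 35 of 36 detected, took 5.76 ± 0.297% of counts, Lyz2 included. Lyz2 alone held 28771 CPM of the list's mean sum of 57570 CPM. Ctss (3950 ± 114 CPM), Laptm5 (3843 ± 84.7 CPM) and Ctsb varied by a CV under 3% between libraries. All 37 actin cytoskeleton genes were detected and took 3.85 ± 0.138%. The subunits of the NADPH oxidase, which makes superoxide, took 0.714 ± 0.0204%, with Cybb at 4042 ± 171 CPM and Cyba at 1216 ± 122 CPM. Nos2, the inducible nitric oxide synthase, and Nox4 had 0 counts in all 5 libraries, which allows up to 0.248 CPM. Fth1, ferritin heavy chain, averaged 1492 ± 63.1 CPM, and Slc11a1, a phagosomal metal transporter, lay between 506 and 527 CPM in 4 libraries and at 666 CPM in WT5.

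**Figure D2:**
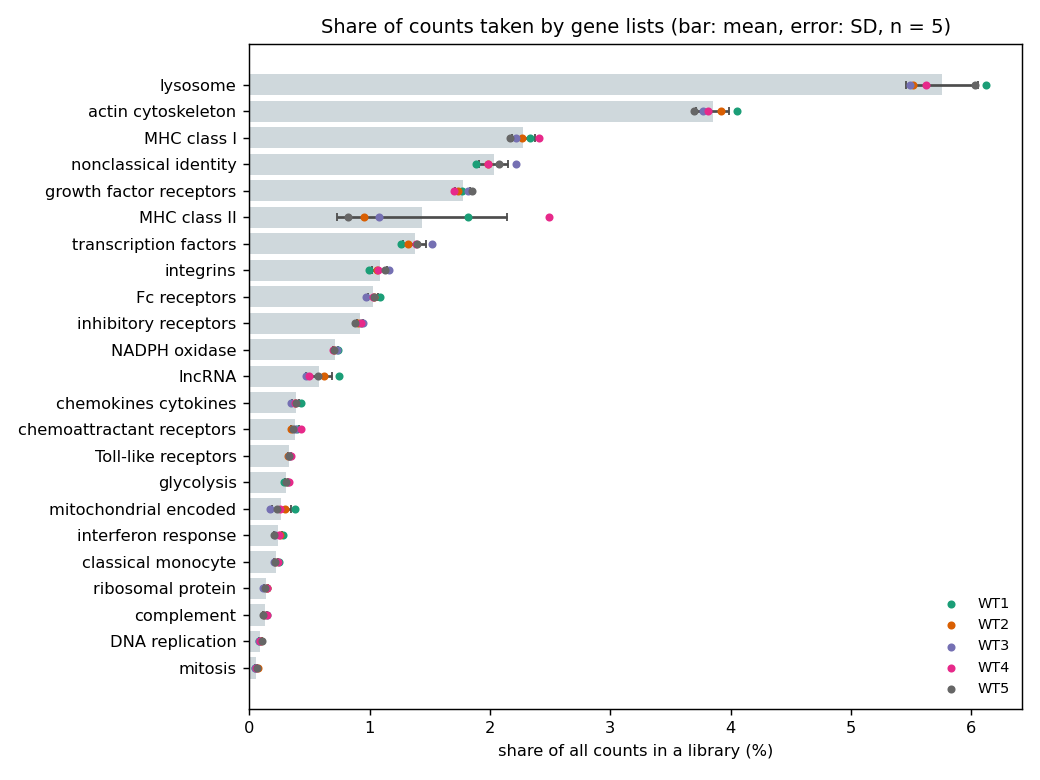
Share of all counts (x axis, %) taken by each gene list; bars show the mean of the 5 WT libraries, error bars the SD and points the single libraries. Lysosomal genes, Lyz2 included, took the largest share at 5.76%. The MHC class II list, from 0.821% in WT5 to 2.49% in WT4, had the largest SD of those plotted.

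Of 64 listed transcription factors, 56 were detected. On the per-kilobase scale the order was Cebpb (1697), Nr4a1 (1192), Spi1, the myeloid factor PU.1 (990), Irf5 (914), Klf2 (767) and Stat6 (491). Spi1 and Irf5 were even, at 884 ± 48.3 and 880 ± 43.3 CPM. Pparg, known as a lipid-sensing nuclear receptor, measured 291, 310, 385, 355 and 325 CPM. Cebpb, which is required for nonclassical monocyte survival, was uneven, at 222, 496, 1798, 852 and 816 CPM, a CV of 71.2%. WT3 was far above and WT1 far below the other libraries. Klf2, a factor of quiescence and adhesion, followed the same extremes, with 267 CPM in WT1 and 757 CPM in WT3. A gene on the opposite strand, Tmem189, covers 20.7% of the exon bases of Cebpb, and whether strand was used in counting is not stated in any source used.

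Survival genes were dominated by Mcl1, the short-lived antiapoptotic protein, at 492, 760, 1380, 764 and 718 CPM. It was highest in WT3 and lowest in WT1, as Cebpb was. Its per-kilobase level was 21.7 ± 6.63 times that of Bcl2, which lay between 78.6 and 111 CPM. Among the killers, Pmaip1, which codes for NOXA, averaged 211 CPM, Bax was nearly level at 92.5 ± 2.42 CPM, and Bak1 was low at 3.42 CPM. Hrk had 0 counts in all 5.

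Proliferation genes were detectable at low levels. All 24 mitosis genes passed 1 CPM in every library, but their sum took 0.0571 ± 0.00999% of counts and their median per-kilobase percentile was 42.3. Mki67, a nuclear antigen of cycling cells, ranged from 30.5 to 44.9 CPM, and Top2a from 47.6 to 72.4 CPM. The mitosis sum was highest in WT2 (697 CPM) and WT5 (656 CPM), and lowest in WT3 (469 CPM). WT2 also had the highest summed progenitor markers (1910 CPM), but WT4 came next (1334 CPM), ahead of WT5 (1232 CPM). The part of progenitors in these sums was not tested.

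Antigen presentation split into an even and an uneven branch. The 19 MHC class I genes were all detected and took 2.28 ± 0.0944% of counts, a CV of 4.15% between libraries. The MHC class II list took 1.43 ± 0.705%, a CV of 49.2%. Its summed values in WT1 to WT5 were 18194, 9577, 10817, 24891 and 8211 CPM, 3.03-fold between WT4 and WT5 and still 2.22-fold when WT4 was left out. H2-Aa, the alpha chain of I-A, measured 1902, 903, 1025, 2507 and 728 CPM. H2-Ab1, its beta chain, measured 3917, 1889, 2115, 5421 and 1566 CPM. H2-Eb1, of I-E, measured 1632, 755, 910, 2319 and 658 CPM. WT4 was highest, WT1 next and WT5 lowest for each of them. Ciita, the class II transactivator, had the same order of libraries, at 54.3, 28.8, 44.4, 77.9 and 25.4 CPM. Of 10 detected members, 9 were highest in WT4, and H2-DMb2 was highest in WT1. Over all detected genes, 18.7% were highest in WT4. H2-Ob stood apart with little spread, from 18.75 to 27.9 CPM.

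The promoters of class II genes carry a conserved X and Y box to which the regulators of this family are recruited. The windows before the RefSeq starts of H2-Aa and H2-Eb1 are shown because these genes moved together between libraries. Capitals mark the Y box TGATTGG and the cAMP response element TGACGTCA, searched on both strands. H2-Aa lies on the minus strand at chr17:34287824-34288073, and H2-Eb1 on the plus strand at chr17:34305617-34305866, both of GRCm38.p6.
H2-Aa: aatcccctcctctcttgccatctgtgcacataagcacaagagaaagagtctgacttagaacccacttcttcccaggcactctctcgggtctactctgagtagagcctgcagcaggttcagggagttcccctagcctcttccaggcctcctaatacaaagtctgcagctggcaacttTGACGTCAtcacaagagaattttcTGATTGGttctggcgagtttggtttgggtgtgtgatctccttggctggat
H2-Eb1: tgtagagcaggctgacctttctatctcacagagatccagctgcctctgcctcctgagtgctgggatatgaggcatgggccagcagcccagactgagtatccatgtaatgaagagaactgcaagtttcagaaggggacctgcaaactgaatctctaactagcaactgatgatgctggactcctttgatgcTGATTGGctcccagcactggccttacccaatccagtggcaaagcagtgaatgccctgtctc
Both windows hold the Y box, which ends 44 bases before the start in H2-Aa and 55 in H2-Eb1. The letters of the response element were found in H2-Aa alone. The windows of H2-DMa held none of these letters. Among all 32851 windows, 7.23% hold the Y box and 1.55% the response element, and these shares say nothing about which sites are used.

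Other genes had the library order of class II, or nearly so. Cd209a, the DC-SIGN homologue of monocyte-derived cells, measured 128, 68.8, 92.8, 199 and 60.0 CPM, and Clec10a 58.1, 22.9, 30.8, 62.2 and 21.97 CPM, both highest in WT4. Mgl2, a lectin related to Clec10a, measured 67.5, 18.4, 29.0, 47.8 and 9.57 CPM, and there WT1 was highest. C1qb, of the first complement component, measured 416, 290, 303, 489 and 249 CPM. Axl, a receptor for apoptotic cells, measured 223, 139, 166, 216 and 114 CPM. Clec10a was picked after its values were seen. Of the dendritic cell and B cell markers, Clec9a, Zbtb46, Siglech, Xcr1, Ms4a1 and Cd79a were low and did not all have this order. Clec9a lay between 4.305 and 9.27 CPM, Zbtb46 between 5.09 and 9.42 and Siglech between 6.87 and 32.1, highest in WT5. Xcr1 was near the limit of detection, between 0.673 CPM in WT5 and 2.35 CPM in WT4. Ms4a1 was lowest in WT5 (0.0747 CPM), and Cd79a in WT4 (2.61 CPM). The dendritic cell list, with 9 of 12 members detected, summed to 408, 370, 320, 487 and 379 CPM. Clec9a, Zbtb46, Siglech and Xcr1 held a minor part of this sum. The detected members of the list had a median per-kilobase percentile of 34.8. The B cell list, with 6 of 11 detected, summed to 1310, 1214, 1370, 1607 and 1003 CPM, most of it Ighm. Both sums were highest in WT4, and the B cell sum was lowest in WT5. The immunoglobulin list, which also holds Ighm, summed to 1418, 1260, 1403, 1743 and 971 CPM in WT1 to WT5. That is the library order of the class II sum. Cd22 was also highest in WT4 (58.2 CPM, next highest 37.1). The part of other cells in the class II levels was not tested.

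**Figure D3:**
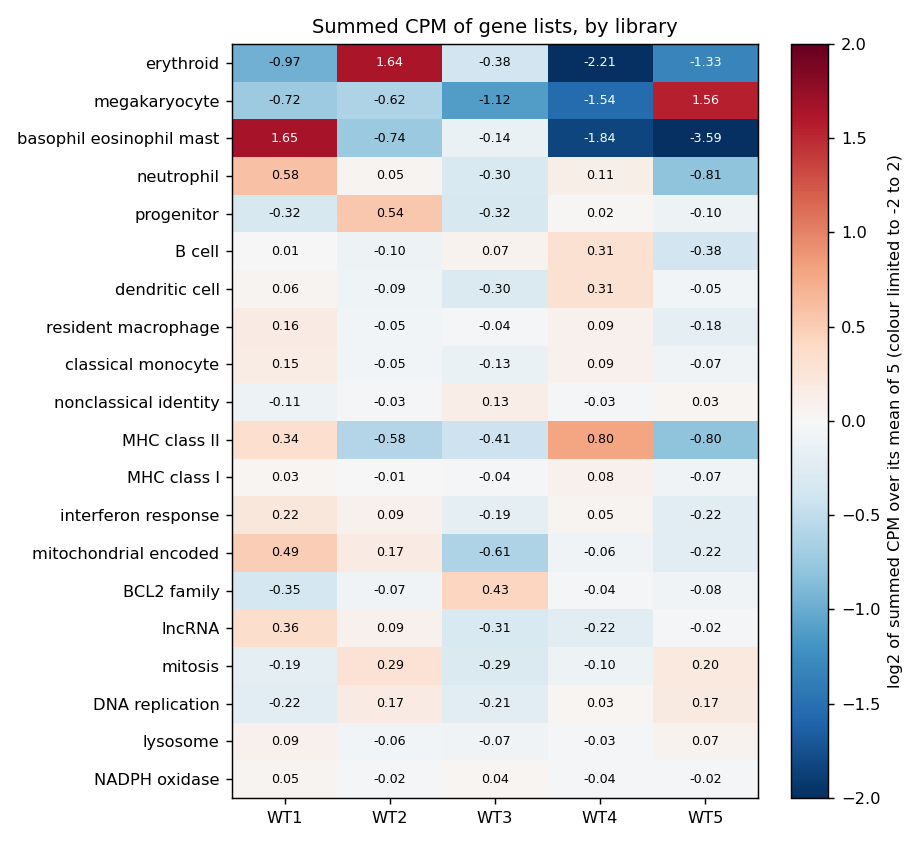
Log2 of the summed CPM of each gene list in each WT library over its mean of the 5 (numbers and colour, colour limited to -2 to 2). The nonclassical identity list stays between -0.11 and 0.13, the MHC class II list reaches 0.80 in WT4 and -0.80 in WT5, and the erythroid, megakaryocyte and basophil lists each peak in 1 library.

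Markers of other marrow cells were in most cases low in CPM, and several rose in a single library. On the per-kilobase scale some short transcripts were not low. The detected erythroid genes had a median per-kilobase percentile of 93.2. Hbb-bs reached 836 ± 1067 per-kilobase units (SD, n = 5), against 880 for Cx3cr1 and 677 for Itgal. The erythroid list summed to 215, 1309, 323, 91.1 and 168 CPM. Hbb-bs, adult beta globin, measured 94.4, 697, 159, 34.7 and 80.2 CPM, and Alas2, of haem synthesis, 2.61, 21.8, 5.49, 1.44 and 5.68 CPM. WT2 was far above the others in both. In the platelet and megakaryocyte list, Ppbp was at 68.8 CPM in WT5 against 0.833 to 3.88 CPM elsewhere, and Itga2b at 45.4 CPM against 0.833 to 4.90 CPM. The basophil protease Prss34 was at 47.7 CPM in WT1, 11.2 CPM in WT3 and 5.37 CPM in WT2, and had 0 counts in WT4. No member of the basophil, eosinophil and mast cell list was detected in all 5 libraries.

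Neutrophil granule genes were higher and graded. The list summed to 2309, 1597, 1252, 1664 and 879 CPM, with 12 of 14 members detected. Their median per-kilobase percentile was 91.2, and S100a8 reached 1004 ± 604 per-kilobase units, against 880 for Cx3cr1. S100a8, an alarmin subunit, ranged from 73.2 CPM in WT5 to 440 CPM in WT1, and Ngp, a neutrophilic granule protein, from 91.6 to 464 CPM in the same libraries. Ly6g, the defining surface marker, was at 1.11, 1.57, 0.278, 1.44 and 0.149 CPM. Of the progenitor genes, Mpo, the granule peroxidase, measured 345, 898, 314, 475 and 456 CPM, and Kit 6.80, 23.3, 7.57, 8.10 and 8.67 CPM, with WT2 highest for both.

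T and NK cell transcripts were low, with 1 of 10 and 2 of 8 listed genes detected. Cd3e was counted in WT1 only (0.316 CPM), Ncr1 was at most 0.237 CPM, and the whole T cell list summed to 3.40 to 10.1 CPM. B cell markers were uneven by gene. Ighm, the IgM heavy chain constant region, measured 1118, 1011, 1149, 1271 and 873 CPM, while Cd79a stayed between 2.61 and 6.24 CPM. The resident macrophage genes showed the same split, with 13 of 16 members detected and a sum of 1947 ± 177 CPM. Adgre1, which codes for F4/80 and is also expressed by monocytes, averaged 871 ± 73.0 CPM. Cd5l, Mertk and Vcam1 were lower members of the list, at most 2.85, 5.90 and 32.2 CPM. The detected members of the list had a median per-kilobase percentile of 43.4. Members not named in this paragraph held much of the sum.

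**Figure D4:**
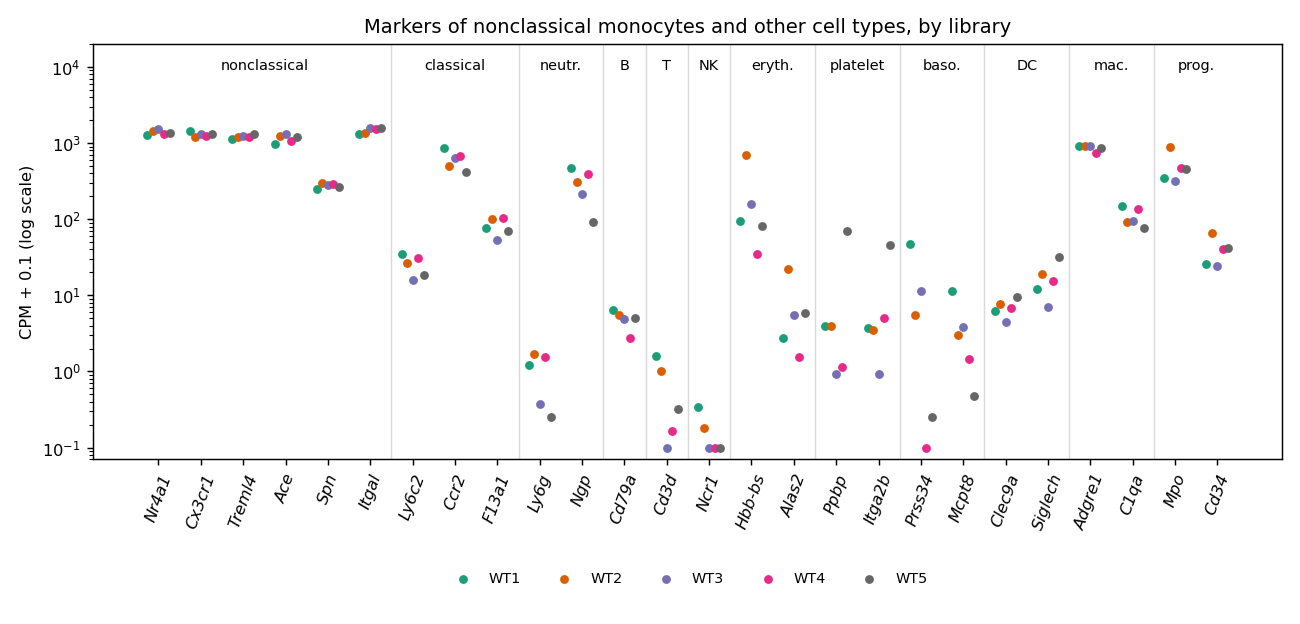
CPM + 0.1 (y axis, log scale) of markers of nonclassical monocytes and of other cell types in each of the 5 WT libraries (coloured points). The 6 nonclassical markers lie between 248 and 1590 CPM with little spread, Hbb-bs peaks in WT2, Ppbp and Itga2b in WT5 and Prss34 in WT1.

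Replicate spread was small for most genes. The median CV over the 11441 detected genes was 16.0% (quartiles 10.3% and 25.2%), where counting error alone would give a median of 5.04%. The common biological coefficient of variation in edgeR was 0.198. Spearman's rho between pairs of libraries over these genes had a median of 0.980 (0.972 to 0.982), which is across genes and not across replicates. No pair agreed within sampling noise, since chi-square over its degrees of freedom lay between 18.2 and 39.7. The most even genes with a mean of at least 50 CPM were Lcp2, an adaptor of immune receptor signalling, at 512 to 523 CPM (CV 0.808%), Tor1a (CV 0.878%) and Necap2. Ptprc, which codes for CD45, was also among the 10 most even (CV 1.15%).

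Of 6772 genes with a mean of at least 20 CPM, 48 had a CV above 50%. The 4 globin genes led. H2-Aa, H2-Ab1 and H2-Eb1 were among them, as were S100a8, S100a9, Ngp and Cd209a, whereas Cd74 (CV 46.1%) and Ciita (CV 46.0%) were not. The largest block was 20 genes that peaked in WT3, and 19 of them were lowest in WT1. Of all 48 genes, 22 were lowest in WT1. Over all detected genes, 17.7% were highest in WT3 and 24.6% were lowest in WT1. Akt1, a survival kinase, measured 98.2, 157, 418, 187 and 155 CPM. Smad4, the shared mediator of TGF-beta signals, measured 15.9, 35.1, 86.2, 37.6 and 35.5 CPM. Sppl3, Gna12 and Axin1 showed the same extremes, as did Cebpb and Itgb5. These 20 genes had a median GC content of 56.8% in their longest transcript, against 49.2% for all 6772. WT1 and WT3 were also the ends of the first principal component, which held 33.0% of the variance. Genes of the highest and lowest GC deciles were compared by their log2 distance from the mean of the libraries. The highest decile minus the lowest was -0.16 in WT1, -0.05 in WT2, 0.09 in WT3, 0.10 in WT4 and 0.02 in WT5. By this measure WT4, and not WT3, was the upper end. Malat1, a nuclear RNA, was highest in WT1 (6201 CPM) and lowest in WT3 (3583 CPM), and the mitochondrially encoded sum likewise (3772 and 1750 CPM). The part of GC content and of RNA composition in the spread of these genes was not tested.

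A further group peaked in WT4 and WT5. Ddit4, an inhibitor of mTOR signalling, measured 39.0, 17.8, 19.1, 144 and 85.7 CPM. Per1, of the circadian clock, measured 16.1, 11.6, 8.12, 38.0 and 44.0 CPM. Dusp1, a phosphatase of MAP kinases, measured 62.2, 62.4, 89.2, 190 and 136 CPM. For all 3 the WT4 and WT5 values were above those of the other libraries. Nfkbia, the inhibitor of NF-kappa-B, had 530, 460, 437, 800 and 656 CPM, and Tsc22d3, which codes for GILZ, 563, 353, 370, 850 and 783 CPM. Both were highest in WT4 and next highest in WT5. Tsc22d3 and Fkbp5 were picked after the values of the others were seen. Fkbp5 did not have this order, at 15.8, 24.9, 19.3, 24.4 and 25.4 CPM, with WT2 above WT4.

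**Figure D5:**
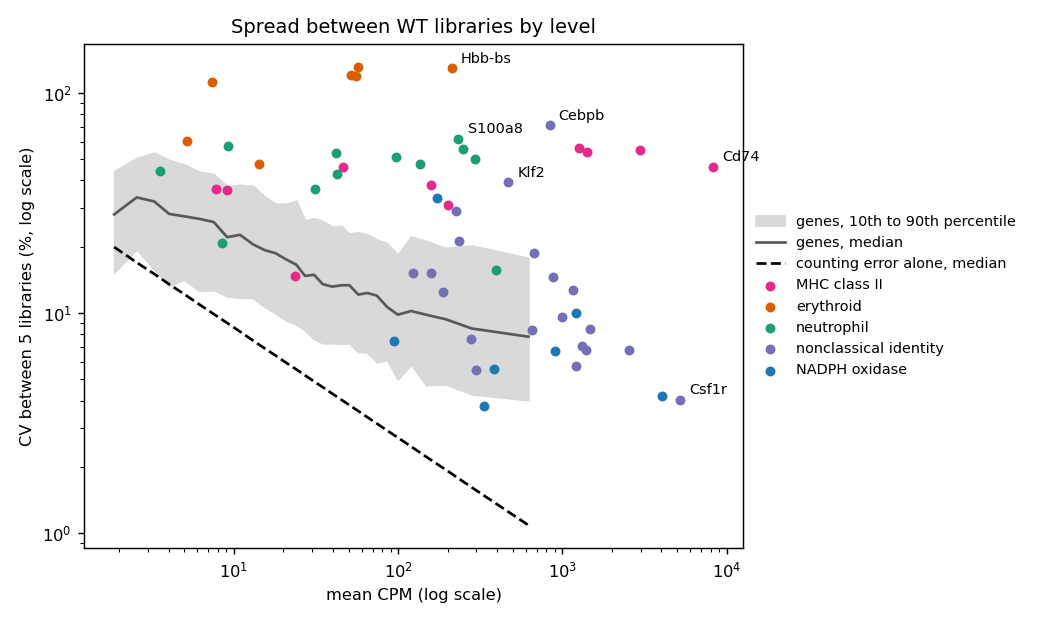
CV between the 5 WT libraries (y axis, %, log scale) against mean CPM (x axis, log scale): the grey band and line give the 10th to 90th percentile and the median of detected genes, and the dashed line the median expected from counting error. The coloured points are members of 5 gene lists. Globin genes and Cebpb (CV 71.2%) stand far above the band, and Csf1r (CV 4.04%) lies at the low end of the spread.

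Some genes usually abundant in any cell had few counts here. Gapdh, of glycolysis, averaged 4.43 ± 0.371 CPM, Pgk1 1.87 CPM and Actg1 1.70 CPM. Per kilobase, Gapdh stood at 3.23 and Actg1 at 1.93, against 1318 for Actb. Of the 77 cytosolic ribosomal protein genes 51 were detected, and the list took 0.136 ± 0.0156% of counts. These genes have many near-identical copies in the genome. Of the 31-base stretches in the longest transcript, 68.2% occur in no other gene for Gapdh, 31.7% for Pgk1 and 42.9% for Actg1, and the median over the ribosomal protein list is 57.1%. The share was 64.7% for Actb and 67.2% for Lyz2, which had high counts. Ferritin light chain, Ftl1, with 5.12% of its own stretches, had a per-kilobase level of 157, and ferritin heavy chain, Fth1, with 94.3%, had 1296. The part of shared sequence in these levels was not tested. Among detected genes 751 (6.57%) had less than 50% of such stretches and 8373 (73.3%) had 90% or more. The counting rule for reads that match several genes is not stated, so the levels of multi-copy genes are uncertain here. The glycolysis list holds less ambiguous members, such as Hk3 (114 ± 11.0 CPM) and Slc2a6 (288 CPM).

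Xist was counted in all 5 libraries at 88.9 to 114 CPM, and the Y-linked genes Eif2s3y, Kdm5d and Uty had 0 counts in every library. Ddx3y, also Y-linked, was counted in WT2 only (0.0826 CPM). Interferon-stimulated genes were detected for 25 of 26 members, at 0.241 ± 0.0314% of counts. By per-kilobase level Ifi27l2a (2039) led the list, ahead of Bst2, which codes for tetherin (293), and Irf7, a transcription factor of the interferon response (209). Isg15, a ubiquitin-like protein, was at 19.0, 11.7, 8.54, 11.0 and 7.62 CPM. The summed list was highest in WT1 (2810 CPM) and lowest in WT5 (2066 CPM), a range of 1.36-fold.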

How the data were processed

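The deposited table holds whole-number read counts per Ensembl gene that the authors had not normalized. GSNAP and the build GRCm38.p5 are named in the submitters' processing notes, with no version for GSNAP. No source used here names the counting tool, the annotation release or the strand setting. Each column carries an identifier that one sample title repeats, and 0 columns lacked a sample. Of 52636 identifiers, 52403 matched GENCODE M21 (GRCm38), which gave symbols, coordinates and merged exon lengths.

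CPM were computed from the deposited counts over library totals, so that 10000 CPM is 1% of counts. The per-kilobase level is CPM per kilobase of merged exon, rescaled to a total of 1000000 in each library. Spread is the SD or CV over the 5 libraries, and the counting CV is that expected from the mean count alone. The biological coefficient of variation came from edgeR 4.0.16 in R 4.3.3 (TMM scaling, intercept only), and the procedure was tested on simulated data. Other steps used Python 3.11.15 and pandas 2.3.3. The counts carry no molecular identifiers, so limits from counts cover counting error only. No groups were compared and no p-value was computed.

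The genes named are the 20 most abundant, the 6 subset markers and Lair1, up to 5 members of each of 40 gene lists with the highest per-kilobase level, up to 2 with the largest CV (mean of at least 5 CPM), the 15 genes with the largest CV (mean of at least 20 CPM), the 10 with the smallest (at least 50 CPM), and list members at 0. Other list members named were chosen after their values were seen. The members and lists were chosen with earlier results of these data known. Alternatives were TMM and DESeq2 1.42.0 size factors, other detection limits and lengths, and each library left out. Promoter sequences are from RefSeq (GRCm38.p6). A window was not used where it met an exon of the same gene in GENCODE M21, which was so for H2-DMb1.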

Additional observations from a re-analysis of the deposited data

Results flagged for a closer look

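Of 281 values screened (named genes with a mean of at least 5 CPM, list sums and library measures), 24 (8.54%) had 1 library far from the other 4. The criterion flags about 1 in 20 groups by chance, but some of these genes were named for their large CV and the 4 globin genes move together, so the share is not comparable with that rate. WT2 was the high library in 10 of them. These were Hbb-bt (190 CPM), Hbb-bs (697 CPM), Hba-a1 (162 CPM), Hba-a2 (171 CPM), Bpgm, of red cell metabolism (47.3 CPM, next highest 20.7), Kit (23.3 CPM), Nkg7 (20.2 CPM), Mpo (898 CPM), Prtn3, a granule protease (86.9 CPM), and the summed erythroid list (1309 CPM, next highest 323).

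WT5 was the high library for Ppbp (68.8 CPM, next highest 3.88), Itga2b (45.4 CPM), the summed megakaryocyte list (193 CPM, next highest 42.9), Ets2, a transcription factor (116 CPM), Il12a (13.2 CPM) and Slc11a1 (666 CPM). It was the low one for Pfn1, which codes for profilin (1334 CPM, next lowest 1636). WT1 was high for Prss34 (47.7 CPM), the summed basophil, eosinophil and mast cell list (70.2 CPM, next highest 20.4) and Cd33 (31.2 CPM, next highest 12.1), and low for H2afy, a macroH2A histone (349 CPM, next lowest 526). WT3 was high for Sppl3 (52.4 CPM). WT4 was high for Cd22 (58.2 CPM) and low for Adgre1 (744 CPM, next lowest 870).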

How the results depend on the processing

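No paired analysis was possible because the libraries form 1 group and no groups were compared. Without one replicate at a time, the median CV ran from 15.2% to 16.2%, the detected genes from 11522 to 11592, the share of the 100 most abundant genes from 25.8% to 26.3% and the identity list's median percentile from 98.7 to 98.8. The median CV was 13.3% for genes with a mean of 10 CPM or more, and 20.5% for genes with 1 count in every library. The identity list's median percentile was 98.5 with the longest transcript length, 99.4 among all genes with 1 count, and 98.5 with a length over the transcript's own 31-base stretches, an alternative chosen after seeing the data. Detected genes numbered 12344 at 0.5 CPM, 10464 at 2 CPM and 12555 at 1 CPM in at least 3 libraries. Under the other scalings no list sum moved by more than 1.70%. Without WT2 the mean erythroid sum was 199 CPM in place of 421, without WT5 the megakaryocyte sum 33.8 in place of 65.7, and without WT1 the basophil, eosinophil and mast cell sum 10.5 in place of 22.4. The erythroid range between libraries was 14.4-fold with WT2 and 3.54-fold without it, the megakaryocyte range 8.57-fold with WT5 and 1.90-fold without it, and the basophil range 37.6-fold with WT1 and 10.9-fold without it. Depth limits genes under 10 CPM, where the median counting CV was 12.8%.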

Other observations

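A few measured groups fall outside the comparisons above. Complement genes were split: 7 of 17 were detected, among them C3 (183 ± 36.0 CPM) and Cfp, which codes for properdin and is made by myeloid cells (172 ± 12.4 CPM), while Vsig4, C1s1, C2 and Cfd were at or under 0.711 CPM in every library. Among long noncoding RNAs, Neat1, the scaffold of paraspeckles, averaged 701 ± 83.0 CPM, and Meg3 was counted in WT5 only (0.0747 CPM).

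Immunoglobulin transcripts were almost confined to constant regions in the detected set, with 5 of 429 listed genes detected. Igkc measured 109, 104, 118, 223 and 40.9 CPM, and Igha ranged from 18.7 to 96.9 CPM. The variable gene Igkv6-15 ranged from 0 to 45.5 CPM. In total 304 immunoglobulin genes had 0 counts in all 5 libraries.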
